A study of Mus musculus with 2 samples.

Results

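The heat shock chaperones described here are 10 genes picked by symbol from the 31058 features of the deposited tables, and all 10 were found in both libraries. Of them 7 are stress-inducible, namely Hspa1a, Hspa1b, Dnajb1, Hspb1, Hsph1, Hsp90aa1 and Bag3, and 3 are constitutive, namely Hspa8, Hspd1 and Hspe1. Their levels were followed across kidney cell classes and between mice treated with CA3, a compound that inhibits the transcriptional coactivator YAP1, and mice given vehicle. Both groups had undergone rhabdomyolysis (spelled rabrhabdomyolysis in the sample labels), the breakdown of skeletal muscle that injures kidney tubules. Each group was 1 droplet library of whole-kidney cells from C57Bl/6 mice aged 9 weeks, female by the series title, with the genotype Pax8.rtTA;TetO.Cre;R26.FUCCI2aR. In that genotype the Pax8 promoter, active in tubule cells, drives an inducible Cre that switches on a fluorescent cell cycle reporter, and both groups carry it. No uninjured group was among the samples, and the dose of CA3, the time after injury, the number of animals per library and the cell dissociation are not stated in the labels. With 1 library per group no difference has a replicate check, so no p-value is given and every interval is a 95% interval that covers counting error only.

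Heat shock proteins bind unfolded proteins and keep them from aggregating. HSP70 proteins work in a cycle: J-domain partners such as DNAJB1 deliver clients, nucleotide exchange factors such as HSPH1 and BAG3 release them, HSP90 completes the folding of many signalling proteins, and small heat shock proteins such as HSPB1 hold clients in reserve. The mitochondrial chaperonin HSPD1 with its lid HSPE1 folds proteins in the matrix. When unfolded protein accumulates, heat shock factor 1 forms trimers that bind heat shock elements, inverted repeats of the unit GAA, near the start of the inducible genes.

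The promoters were searched for such repeats, since heat shock factor 1 is known to act through them. RefSeq start sites on build GRCm38.p6 gave 11 windows of 250 bases upstream for 8 of the 10 members; Hsp90aa1 and Hspa8 have no window here. On either strand the pair motif GAANNTTC occurred in 6.69% of all 32851 promoter windows of that length, TTCNNGAA in 7.17%, and a run of 3 such alternating units in 0.466%; the runs contain the pairs. Either pair occurred in 12.8% of the windows. At least 1 pair was found in 7 of the 11 windows, which belong to 6 of the 8 genes. The windows of Dnajb1 and Bag3 and the window of the first Hspd1 start site held neither motif. A match is a description of the sequence and does not show binding. The windows are printed 5′ to 3′ with every match in capitals. The Hspa1 pair is shown because its members are near-copies, Hspb1 and Hsph1 for their pairs, and Hspe1 for its run of 3 units.
Hspa1a, chr17:34972157-34972406 (minus strand): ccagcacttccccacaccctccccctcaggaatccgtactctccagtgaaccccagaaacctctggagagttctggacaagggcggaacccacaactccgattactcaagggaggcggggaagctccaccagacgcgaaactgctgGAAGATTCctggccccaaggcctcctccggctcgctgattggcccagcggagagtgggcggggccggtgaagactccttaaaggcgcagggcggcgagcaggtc
Hspa1b, chr17:34959239-34959488 (minus strand): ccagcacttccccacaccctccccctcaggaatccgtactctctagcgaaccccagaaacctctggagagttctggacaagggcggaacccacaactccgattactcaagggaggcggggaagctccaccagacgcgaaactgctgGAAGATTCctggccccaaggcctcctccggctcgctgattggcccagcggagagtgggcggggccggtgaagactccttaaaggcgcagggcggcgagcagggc
Hspb1, chr5:135887669-135887918 (plus strand): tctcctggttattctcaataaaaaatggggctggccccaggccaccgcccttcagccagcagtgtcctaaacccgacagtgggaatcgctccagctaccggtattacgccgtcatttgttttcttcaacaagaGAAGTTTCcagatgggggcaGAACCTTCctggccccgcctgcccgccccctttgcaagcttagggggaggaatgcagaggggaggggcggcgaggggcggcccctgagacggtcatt
Hsph1, chr5:149636337-149636586 (minus strand): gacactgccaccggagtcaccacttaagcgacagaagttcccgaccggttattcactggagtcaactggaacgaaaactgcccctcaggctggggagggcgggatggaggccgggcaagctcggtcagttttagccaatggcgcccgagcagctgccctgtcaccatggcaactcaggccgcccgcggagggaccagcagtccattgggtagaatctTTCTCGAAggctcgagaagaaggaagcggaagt
Hspe1, chr1:55087898-55088147 (plus strand): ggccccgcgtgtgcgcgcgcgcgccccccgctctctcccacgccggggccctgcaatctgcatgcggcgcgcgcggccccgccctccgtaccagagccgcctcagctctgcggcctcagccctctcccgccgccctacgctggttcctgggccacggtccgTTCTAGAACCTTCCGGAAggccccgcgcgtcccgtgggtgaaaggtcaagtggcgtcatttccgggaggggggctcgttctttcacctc

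The windows of Hspa1b and Hspa1a were 98.8% identical, differing at 3 of 250 positions. Counted from 1 at the 5′ end of the window, with the Hspa1b base first, the differences were T44C, C47T and G249T, none of them inside the shared pair GAAGATTC at positions 147 to 154. Hspe1 carried both 3-unit runs in 18 overlapping bases, and the second Hspd1 start site shares that stretch on the opposite strand, since the genes are arranged head to head. Perfect repeats were present in windows of inducible members and of the constitutive pair Hspd1 and Hspe1.

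The transcripts that the 3′ libraries count could be told apart for most members. In GENCODE vM21 on the same build, no 31-base word in the last 400 bases of Hspa1a or of Hspa1b occurred in a transcript of another gene, nor did one of Dnajb1, Hsph1, Bag3 or Hspd1. By contrast 81.4% of the words of Hspa8 and 72.4% of those of Hspe1 occurred in transcripts of other genes, such as Gm15459 and Hspe1-ps3, and 28.4% of those of Hspb1 in Hsp25-ps1. None of these other genes is among the features of the deposited tables, and the labels do not say how reads shared with them were counted, so the levels of Hspa8, Hspe1 and Hspb1 are uncertain to that extent. Hspa1a lies opposite the gene Gm20481, and Bag3 overlaps 2610306O10Rik on its own strand.

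The CA3 library held 1724 cell barcodes with 17013222 unique molecular identifiers (UMIs, each 1 captured transcript), and the vehicle library 1967 barcodes with 19592239. After filtering, 1494 CA3 cells and 1767 vehicle cells remained, with a median mitochondrial share of 17.7% and 17.5%; the libraries had 1 cell barcode in common. The chaperones, their cofactors and immediate early genes took no part in the clustering, so no class was defined by them. Of 20 clusters 10 were proximal tubule, the reabsorbing first segment of the nephron, with 1161 CA3 cells and 1435 vehicle cells. The other classes were small: 48 and 90 thick ascending limb cells, 53 and 56 distal convoluted tubule cells, 13 and 22 connecting tubule or principal cells, 18 and 15 intercalated cells, 38 and 40 endothelial cells, 43 and 38 mononuclear phagocytes, and 96 and 51 T or NK cells, in CA3 and vehicle in each case. Levels are given in CPM, the UMIs of a gene in a class scaled to a common total of 1000000 UMIs from genes not encoded in mitochondria. Doublets were not removed, and free RNA can add UMIs of one class to cells of another.

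The constitutive members were present in every one of these classes. Hspa8, the housekeeping HSP70 (chromosome 9, 40800984 to 40810087), stood at 2849 CPM in CA3 phagocytes and 2491 CPM in vehicle phagocytes, its highest class. Its lowest class was the connecting tubule and principal cell class, with 1115 CPM in CA3 and 866 CPM in vehicle. Hspd1 and Hspe1, by contrast, were highest in the proximal tubule, a segment rich in mitochondria. Hspd1 (chromosome 1, 55077835 to 55088243) had 767 CPM there in CA3 and 819 CPM in vehicle, while all other classes named above lay between 241 and 412 CPM in CA3 and between 250 and 422 CPM in vehicle. Hspe1 (chromosome 1, 55088132 to 55091307) had 994 CPM in CA3 and 1013 CPM in vehicle proximal tubule, against 268 to 584 CPM and 229 to 553 CPM in the other classes. For both genes the proximal tubule interval lay above that of each other class named above, in each library.

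**Figure D1:**
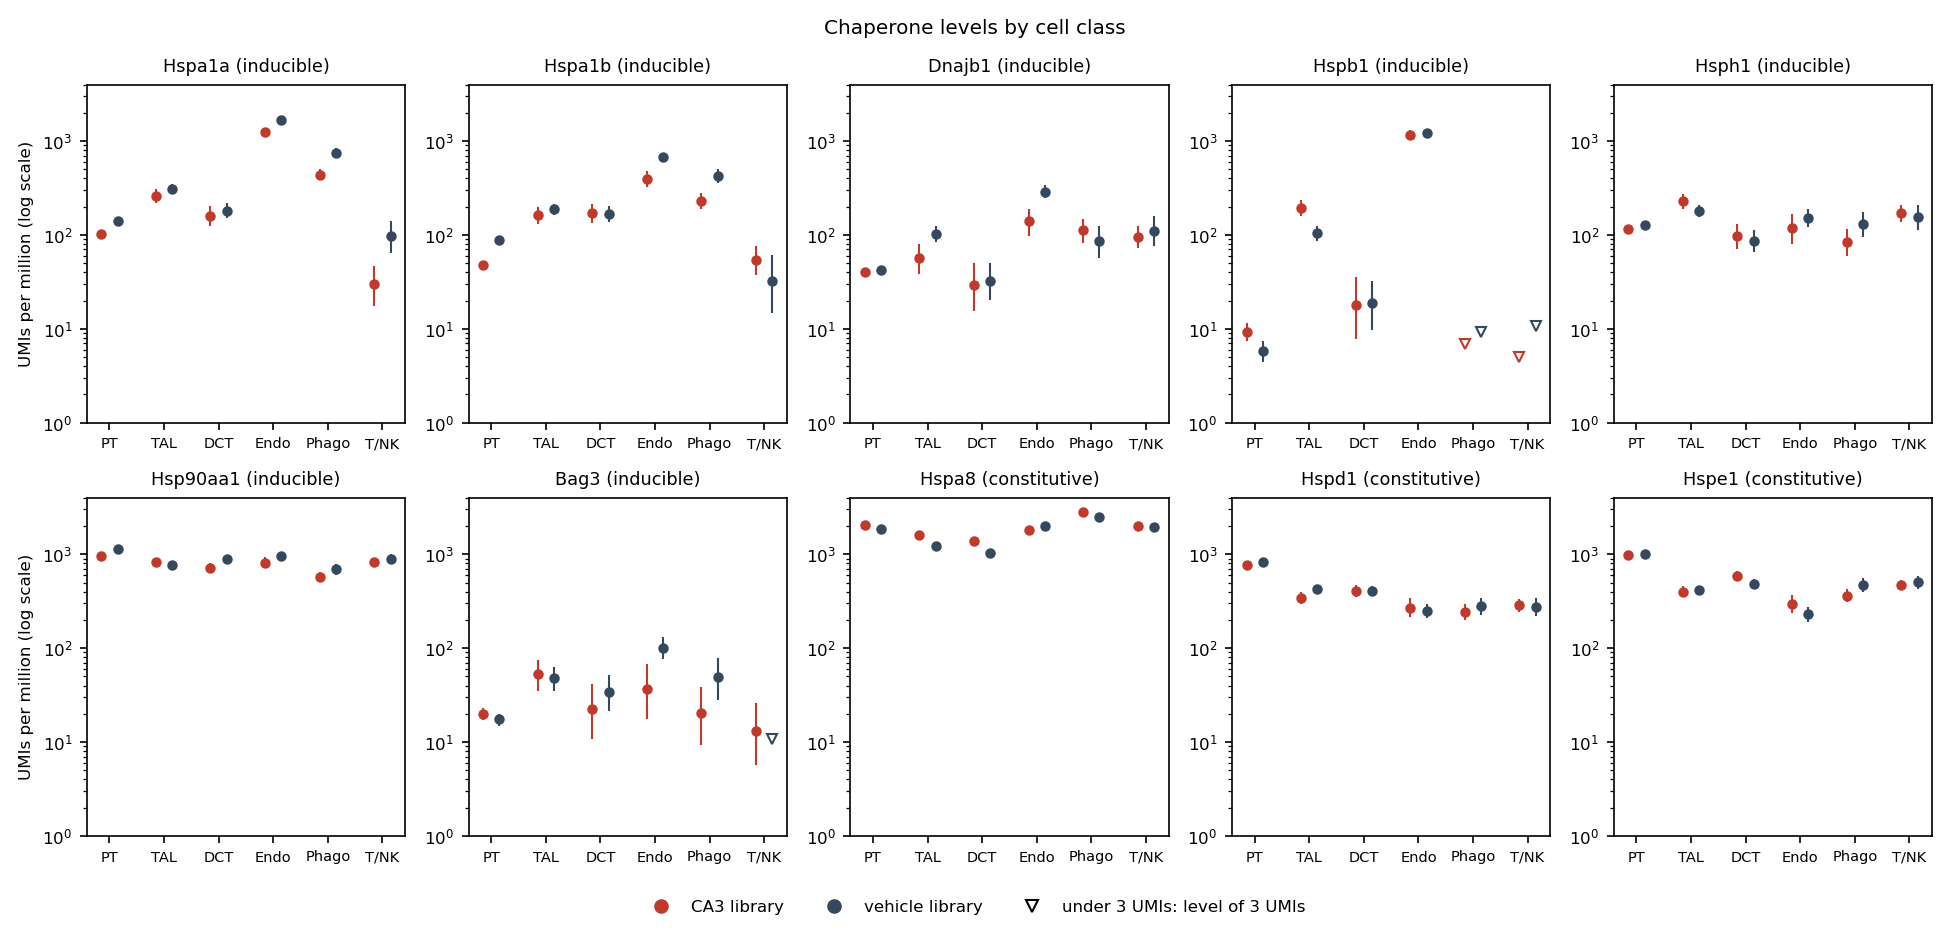
Level of each member in 6 classes, in CPM on a log axis, with exact Poisson intervals; CA3 is drawn left of vehicle. PT is proximal tubule, TAL thick ascending limb, DCT distal convoluted tubule, Endo endothelium, Phago mononuclear phagocytes and T/NK T or NK cells, and open triangles stand at the level of 3 UMIs where fewer were counted. Hspa1a, Hspa1b and Hspb1 peak in endothelium, at 1245, 395 and 1168 CPM in CA3, while Hspd1 and Hspe1 peak in the proximal tubule.

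The inducible HSP70 pair had the opposite pattern, with endothelium at the top and the proximal tubule near the bottom. Hspa1a (chromosome 17, 34969190 to 34972156) reached 1245 CPM in CA3 endothelium and 1687 CPM in vehicle endothelium, against 102 and 142 CPM in the proximal tubule. Phagocytes had 440 CPM in CA3 and 750 CPM in vehicle, intercalated cells 336 and 819 CPM, and the thick ascending limb 260 and 312 CPM. Among these classes T or NK cells were lowest, with 29.7 CPM in CA3 and 96.9 CPM in vehicle. Hspa1b (chromosome 17, 34956436 to 34959238) was also highest in endothelium, with 395 CPM in CA3 and 678 CPM in vehicle, and second in phagocytes, with 232 and 424 CPM. Endothelial cells had a median depth of 6090 UMIs in CA3 and 7845 in vehicle, against 7895 and 7205 in proximal tubule cells. The endothelial class also held thick ascending limb markers at 8376 CPM in CA3 and 3483 CPM in vehicle, and mesangial, pericyte or fibroblast markers at 7.32 and 781 CPM; their part in the endothelial values was not tested.

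Hspb1, the small heat shock protein (chromosome 5, 135887919 to 135889563), was the member most unevenly spread over classes. Endothelium had 1168 CPM in CA3 and 1203 CPM in vehicle, and 65.8% (48.6 to 80.4%) of CA3 and 80.0% (64.4 to 90.9%) of vehicle endothelial cells had a UMI after each cell was thinned to 2000 UMIs. Podocytes, with 7 and 15 cells, had 5 UMIs in CA3 and 78 in vehicle, and the thick ascending limb had 194 CPM in CA3 and 104 CPM in vehicle. In the proximal tubule 0.775% (0.355 to 1.47%) of CA3 and 0.697% (0.335 to 1.28%) of vehicle cells had a UMI. T or NK cells had 1 of 96 in CA3 and 0 of 51 in vehicle, which allows a share of up to 5.88% at 3 counts (exact 95% upper limit 6.98%), so the proximal tubule share is not read as expression. Dnajb1, the J-domain partner of inducible HSP70 (chromosome 8, 83608193 to 83612653), stood at 139 CPM in CA3 and 289 CPM in vehicle endothelium, against 39.9 and 41.8 CPM in the proximal tubule. Bag3, a cochaperone that links HSP70 to selective autophagy (chromosome 7, 128523616 to 128546981), had 36.6 CPM in CA3 and 101 CPM in vehicle endothelium, against 20.1 and 17.4 CPM; the CA3 intervals of the classes overlapped. Hsp90aa1, the inducible cytosolic HSP90 (chromosome 12, 110690605 to 110702728), and Hsph1, the HSP110 exchange factor (chromosome 5, 149614287 to 149636376), spanned less than 3-fold over these classes in each library. Hsp90aa1 ran between 572 and 1109 CPM in CA3 and between 689 and 1479 CPM in vehicle, and Hsph1 between 84.3 and 237 CPM and between 87.0 and 197 CPM.

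In the proximal tubule the CA3 library held less of the inducible HSP70 pair than the vehicle library, while the ratios of the other members except Hspb1 lay between 0.824 and 1.15. Hspa1a had 102 CPM in CA3 and 142 CPM in vehicle, a ratio of 0.715 (0.659 to 0.777), from 936 and 1507 UMIs. Hspa1b had 47.8 CPM in CA3 and 89.3 CPM in vehicle, a ratio of 0.536 (0.477 to 0.600), from 441 and 948 UMIs. Summed, the pair stood at 149 CPM in CA3 and 231 CPM in vehicle, a ratio of 0.646 (0.604 to 0.690). Over the whole class the make-up of the sum differed as well: Hspa1b gave 32.0% (29.6 to 34.6%) of the pair's UMIs in CA3 and 38.6% (36.7 to 40.6%) in vehicle. This direction did not hold in all proximal tubule clusters, as given below.

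A ratio of at least 1.5, or at most its inverse, with 30 UMIs in the 2 libraries together was taken as a difference of size, and 2 of the 10 members passed it in the proximal tubule. All genes gave 5.83% past that size among 11226, 2.81% higher and 3.02% lower in CA3. Hspa1b was the member on the lower side and Hspb1 the one on the higher side, at 9.22 CPM in CA3 and 5.74 CPM in vehicle, a ratio of 1.60 (1.14 to 2.27). Only 85 and 61 UMIs stood behind it, and 46 and 31 of those lay in 3 cells of each library. Without these cells Hspb1 had a ratio of 1.498 (0.907 to 2.50), just under the size limit. The same step put Hspa1a past it, at 0.628 (0.574 to 0.687), and Hspa1b at 0.495 (0.437 to 0.560). Without cells that held 3 or more UMIs of other classes' markers, which left 515 CA3 and 693 vehicle cells, the summed pair had a ratio of 0.328 (0.274 to 0.390) and Hspb1 turned to 0.248 (0.0749 to 0.651). Over all proximal tubule cells the endothelial markers stood at 9.98 CPM in CA3 and 8.29 CPM in vehicle and the phagocyte markers at 99.4 and 64.6 CPM, while erythroid markers stood at 278 and 835 CPM and B or plasma cell markers at 1.30 and 246 CPM; their part in the ratios was not tested.

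Among the remaining inducible members, Hsp90aa1 had 947 CPM in CA3 and 1150 CPM in vehicle, a ratio of 0.824 (0.801 to 0.847), and Hsph1 had 117 and 127 CPM, a ratio of 0.921 (0.849 to 0.999). Dnajb1 stood at 39.9 CPM in CA3 and 41.8 CPM in vehicle, and Bag3 at 20.1 and 17.4 CPM; both intervals held 1. The constitutive Hspa8 had 2040 CPM in CA3 and 1851 CPM in vehicle, a ratio of 1.10 (1.08 to 1.12). Hspd1 had 767 and 819 CPM, and Hspe1 994 and 1013 CPM. The median log2 ratio was -0.12 over the 7 inducible and -0.03 over the 3 constitutive members, against 0.01 over all genes tested. The summed inducible members had a ratio of 0.816 (0.796 to 0.835) and the summed constitutive members 1.03 (1.02 to 1.05). Each sum mostly follows 1 gene. Hsp90aa1 gave 8733 of the 11823 inducible UMIs in CA3 and 12208 of 16697 in vehicle. Hspa8 gave 18808 of the 35043 constitutive UMIs in CA3 and 19653 of 39117 in vehicle.

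**Figure D2:**
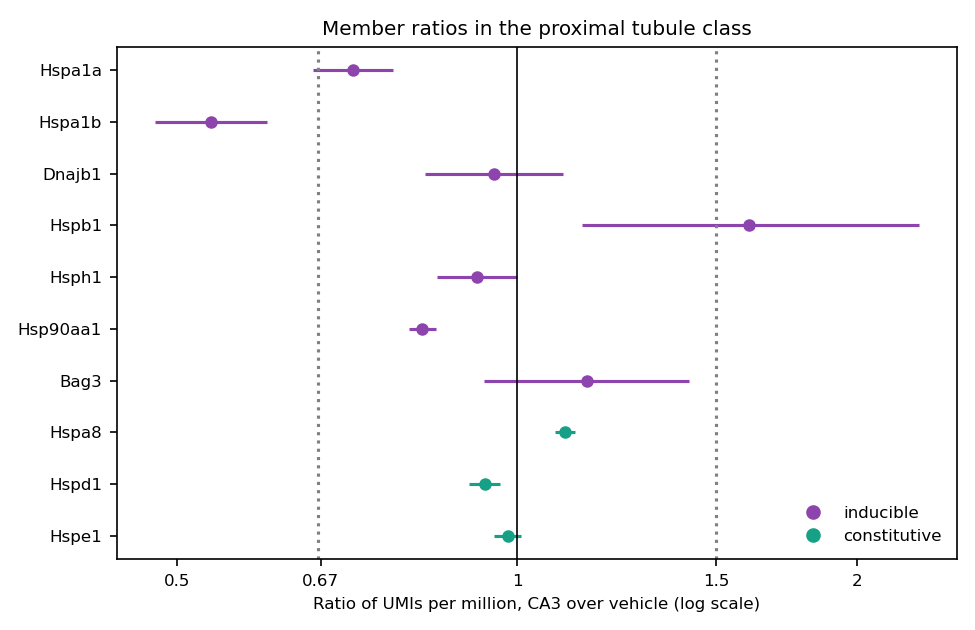
Ratio of CPM, CA3 over vehicle, of each member in the proximal tubule class on a log axis, with exact conditional intervals that cover counting error only; dotted lines mark 1.5 and its inverse. Hspa1b at 0.536 lies left of the lower line, Hspb1 at 1.60 right of the upper line, and the 3 constitutive members lie between 0.936 and 1.10.

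The proximal tubule value was an average over very unlike cells. Hspa1a had no UMI in 88.5% of CA3 and 85.5% of vehicle proximal tubule cells, and the 10% of cells richest in it held 98.2% and 95.8% of its UMIs. Hspa8, in contrast, had no UMI in 0.258% and 0.348% of cells, and its richest 10% held 30.6% and 32.5%. Of the Hspa1a UMIs, 719 of 936 in CA3 and 1118 of 1507 in vehicle lay in 2 clusters, numbered 6 and 10, which were singled out after the data were seen because Cyr61, a matricellular gene, was among their leading genes. These clusters held 125 CA3 cells, 10.8% (9.04 to 12.7%) of the proximal tubule, and 184 vehicle cells, 12.8% (11.1 to 14.7%).

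In the Cyr61-led clusters Hspa1a had 446 CPM in CA3 and 502 CPM in vehicle, against 28.5 CPM and 46.4 CPM in the other proximal tubule clusters. Clusters 0, 1, 2, 11 and 14 were lowest, with Hspa1a between 2.30 and 7.62 CPM in CA3 and between 7.22 and 9.34 CPM in vehicle. Clusters 4 and 5 lay between, with the summed pair at 63.3 and 155 CPM in CA3 and 126 and 242 CPM in vehicle, and cluster 17 had 33.3 CPM in CA3 and 70.7 CPM in vehicle. Hsp90aa1 moved with the pair, at 2413 CPM in CA3 and 2902 CPM in vehicle inside the Cyr61-led clusters, and 637 and 684 CPM outside. Hspd1 stood at 647 CPM in CA3 and 713 CPM in vehicle inside, and 792 and 847 CPM outside. A low Hspd1 level was not particular to the Cyr61-led clusters. Clusters 4 and 5, which lie outside, had 531 and 627 CPM in CA3 and 494 and 634 CPM in vehicle. The immediate early genes, transcription factors and regulators switched on within minutes by many stimuli, summed to 18464 CPM in CA3 and 17080 CPM in vehicle inside, and 1896 and 1670 CPM outside. Cells of clusters 6 and 10 were also deeper, with a median of 15440.5 and 13932 UMIs in CA3 and 13713 and 12254 in vehicle, where clusters 0, 1, 2, 11 and 14 had 5489.5 to 6850 in CA3 and 5368 to 6624.5 in vehicle. After thinning to 2000 UMIs, 38.4% (29.8 to 47.5%) of CA3 and 48.9% (41.5 to 56.4%) of vehicle cells in the Cyr61-led clusters had a UMI of Hspa1a or Hspa1b, against 4.63% (3.44 to 6.10%) and 6.00% (4.74 to 7.46%) in the other proximal tubule clusters. For Hspa1a alone the share over the whole proximal tubule, 5.17% in CA3 and 7.53% in vehicle, was no higher than that of T or NK cells, 5.21% and 7.84%, whose median depths were 6082.5 and 5235 UMIs. A share at that height is not read as expression across the whole class. Single proximal tubule cells held up to 75 Hspa1a UMIs in CA3 and 49 in vehicle, and 40 and 73 cells held 5 or more. The part of free RNA in single clusters was not tested.

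**Figure D3:**
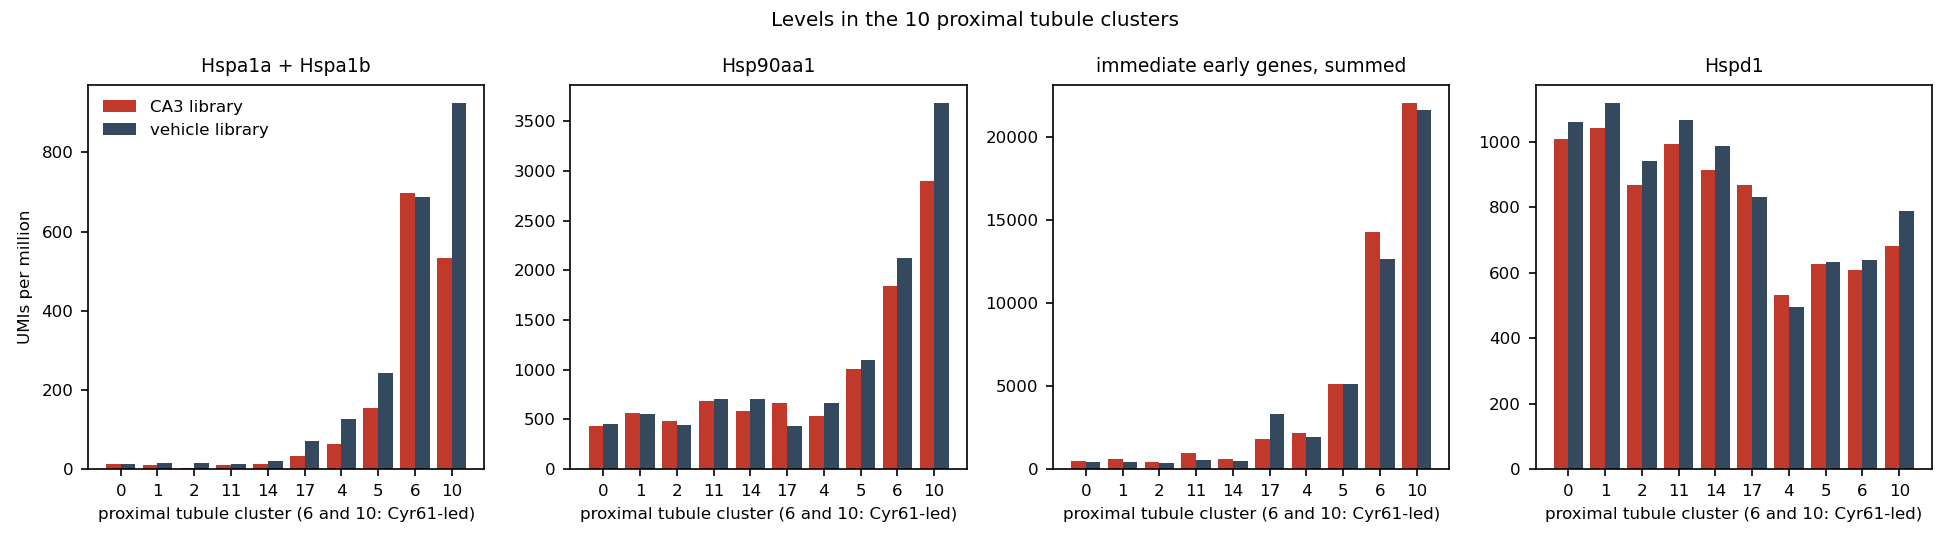
Level in each of the 10 proximal tubule clusters in CPM, with CA3 bars left of vehicle bars and no error drawn, for the summed Hspa1 pair, Hsp90aa1, the summed immediate early genes and Hspd1. The Hspa1 pair, Hsp90aa1 and the immediate early genes stand highest in clusters 6 and 10, where Hspd1 is lower than in clusters 0, 1, 2, 11 and 14.

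The summed Hspa1 pair had a ratio below 1 both inside and outside the Cyr61-led clusters. Both ratios lay above the whole-class ratio of 0.646. The Cyr61-led clusters, where the pair was highest, held 10.8% of CA3 and 12.8% of vehicle proximal tubule cells. The part of this difference in share in the whole-class ratio was not tested. Inside, the summed pair had a ratio of 0.755 (0.697 to 0.816), with Hspa1b at 0.532 (0.459 to 0.615) and Hspa1a at 0.889 (0.809 to 0.978). Outside, the sum had a ratio of 0.664 (0.585 to 0.753), with Hspa1a at 0.615 (0.519 to 0.728) and Hspa1b at 0.734 (0.605 to 0.889). Hspa1b gave 260 of the pair's 979 UMIs in CA3 and 676 of 1794 in vehicle inside, a smaller part in CA3. Outside it gave 181 of 398 in CA3 and 272 of 661 in vehicle, a larger part in CA3. The 2 Cyr61-led clusters were not alike: the summed pair had 697 CPM in CA3 and 687 CPM in vehicle in cluster 6, and 532 and 925 CPM in cluster 10. Hsp90aa1 had a ratio of 0.832 (0.799 to 0.865) inside and 0.931 (0.895 to 0.967) outside. Inside, Hspb1 lay almost wholly in cluster 10, with 68.9 CPM in CA3 and 30.8 CPM in vehicle there, against 0 and 1.78 CPM in cluster 6. Bag3 pointed both ways, at 24.8 CPM in CA3 and 37.7 CPM in vehicle inside, a ratio of 0.659 (0.440 to 0.971) from 40 and 84 UMIs, and 19.1 and 12.0 CPM outside, a ratio of 1.58 (1.22 to 2.06) from 145 and 101 UMIs. Whether these ratios differ between the clusters was not tested.

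Across the other classes except podocytes, the summed Hspa1 pair was lower in CA3 wherever its interval left out 1. The ratio was 0.693 (0.622 to 0.772) in endothelium, from 1640 CPM in CA3 and 2365 CPM in vehicle. It was 0.572 (0.490 to 0.668) in phagocytes, 0.442 (0.356 to 0.546) in intercalated cells, 0.636 (0.518 to 0.777) in connecting tubule and principal cells, and 0.845 (0.721 to 0.988) in the thick ascending limb. In the distal convoluted tubule, at 0.952 (0.768 to 1.18), and in T or NK cells, at 0.651 (0.416 to 1.03), the interval held 1. A few cells carried much of this: without the 3 richest cells of each library the thick ascending limb ratio was 0.543 (0.423 to 0.692), that of phagocytes 0.859 (0.682 to 1.08) and that of T or NK cells 0.966 (0.470 to 2.10), while that of endothelium was 0.671 (0.584 to 0.768). For connecting tubule and principal cells it was 0.421 (0.304 to 0.573) and for intercalated cells 0.297 (0.205 to 0.425). Hspa1a alone in phagocytes, at 0.586 (0.483 to 0.710) with all cells, turned to 1.05 (0.779 to 1.43). Markers of other cell types differed between the libraries in these classes. In phagocytes erythroid markers stood at 11766 CPM in CA3 and 30.5 CPM in vehicle, and neutrophil markers at 4972 and 271 CPM. Connecting tubule and principal cells had endothelial markers at 464 CPM in CA3 and 128 CPM in vehicle and thin limb markers at 169 and 898 CPM, and intercalated cells had proximal tubule markers at 372 and 1514 CPM. T or NK cells had erythroid markers at 24.7 CPM in CA3 and 9628 CPM in vehicle. The part of these markers in the ratios was not tested. The 22 podocytes, 7 in CA3 and 15 in vehicle, had 38 and 86 UMIs of the pair and a ratio of 1.55 (1.03 to 2.29).

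**Figure D4:**
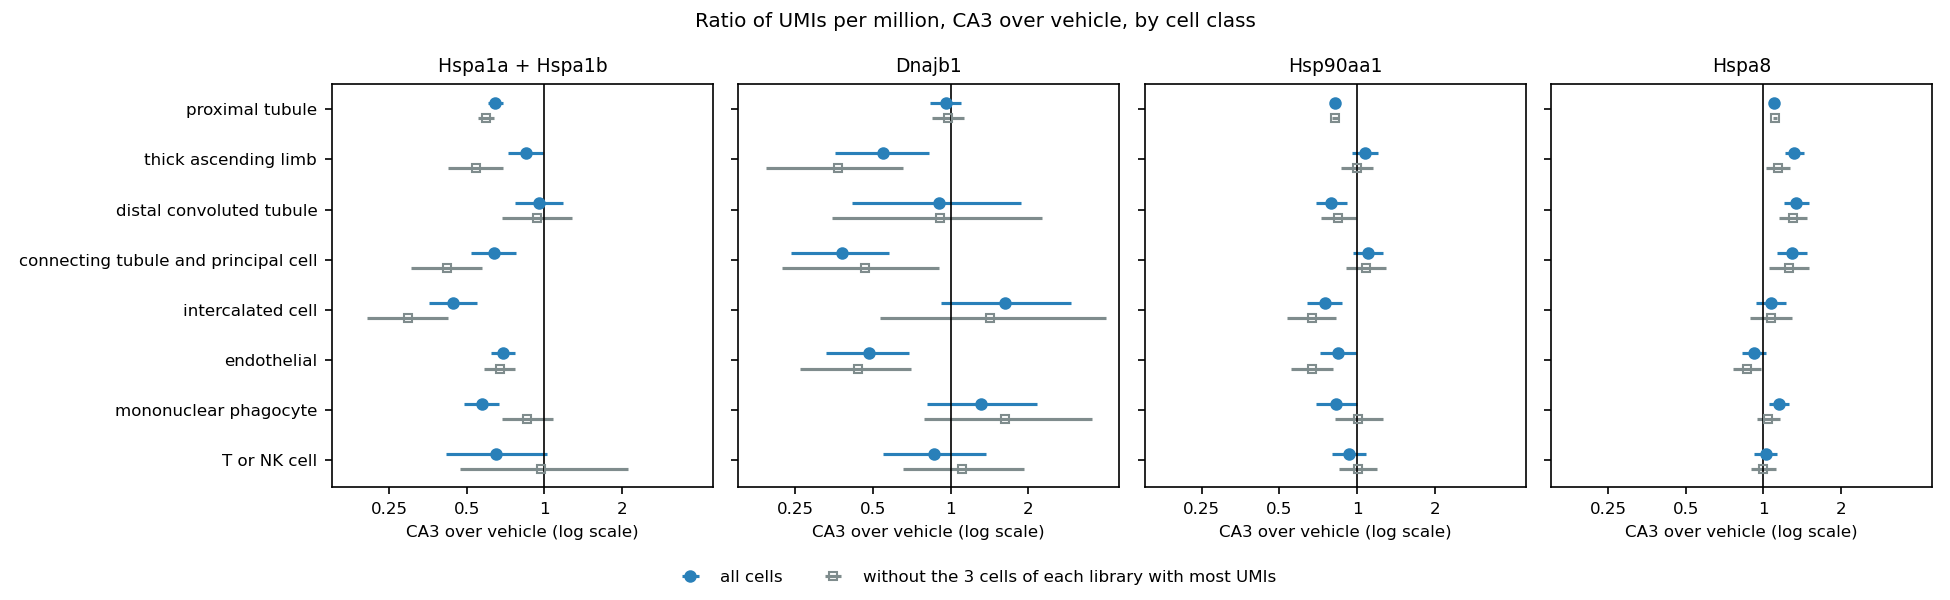
Ratio of CPM, CA3 over vehicle, in 8 classes on a log axis for the summed Hspa1 pair, Dnajb1, Hsp90aa1 and Hspa8, with exact conditional intervals that cover counting error only. Filled circles use all cells, and open squares leave out, per library, the 3 cells richest in the plotted gene; the Hspa1 circles lie at 0.442 to 0.952, all left of 1, while Hspa8 lies at 1.02 to 1.34 in all classes but endothelium.

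Small classes pass the size limit easily by counting error, so the members' counts were read against all genes of the same class. In the thick ascending limb 2 of 10 measured members passed, against 17.6% of all genes. Dnajb1 was lower there, at 56.3 CPM in CA3 and 103 CPM in vehicle, with a ratio of 0.547 (0.354 to 0.822) and of 0.367 (0.192 to 0.652) without the 3 richest cells. Hspb1 was higher there, with a ratio of 1.87 (1.42 to 2.46), but 84 of its 107 CA3 UMIs and 52 of its 109 vehicle UMIs lay in 3 cells of each library, and without them the ratio was 0.872 (0.513 to 1.44). Phagocyte markers stood at 486 CPM in CA3 and 134 CPM in vehicle thick ascending limb cells, and their part in these ratios was not tested. In the distal convoluted tubule 1 of 9 members passed, against 20.2% of all genes, namely Bag3 at 0.659 (0.279 to 1.45). Cells of this class had a median depth of 7241 UMIs in CA3 and 12745.5 in vehicle. Thick ascending limb markers stood there at 4638.5 CPM in CA3 and 9555 CPM in vehicle, and the part of either in the ratios was not tested. In T or NK cells 2 of 8 passed, against 21.3%, namely Hspa1a at 0.306 (0.159 to 0.577) and Hspa1b at 1.68 (0.788 to 4.001), from 18 and 33 UMIs in CA3 and 27 and 9 in vehicle. Without the 3 richest cells of each library these were 0.513 (0.163 to 1.66) and 3.19 (0.733 to 28.9), and the erythroid markers of this class, given above, differed between the libraries.

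In endothelium 3 of 10 members passed, all lower in CA3, against 28.5% of all genes in either direction and 17.8% lower. They were Hspa1b at 0.583 (0.467 to 0.724), Dnajb1 at 0.481 (0.329 to 0.688) and Bag3 at 0.362 (0.165 to 0.715), with 10 and 57 UMIs behind the last. Dnajb1 had 139 CPM in CA3 and 289 CPM in vehicle, and Bag3 had 36.6 and 101 CPM. In phagocytes 3 of 8 members passed, all lower in CA3, against 20.5% of all genes in either direction and 9.64% lower. They were Hspa1a, Hspa1b and Hsph1, the last at 0.643 (0.403 to 1.02). Without the 3 richest cells of each library these were 1.05 (0.779 to 1.43), 0.470 (0.309 to 0.709) and 0.979 (0.540 to 1.79). The erythroid and neutrophil markers given above were higher in CA3 in this class. In connecting tubule and principal cells 4 of 9 members passed, against 21.2% of all genes: Hspa1a, Hspa1b and Dnajb1 were lower and Bag3 higher. The Bag3 ratio there was 1.79 (0.922 to 3.49), from 22 UMIs in CA3 and 19 in vehicle, an interval that held 1. In intercalated cells 4 of 10 passed, against 23.2%, with Hspa1a and Hspa1b lower and Dnajb1 and Hspb1 higher. Dnajb1 stood at 1.62 (0.918 to 2.93), an interval that held 1, and Hspb1 at 2.48 (1.26 to 5.25). Of the 35 CA3 UMIs of Hspb1, 32 lay in 3 cells. Without the 3 richest cells of each library its ratio was 1.21 (0.138 to 14.5). Hspa8 went the other way in parts of the distal nephron, with a ratio of 1.32 (1.21 to 1.44) in the thick ascending limb and 1.34 (1.20 to 1.497) in the distal convoluted tubule. It was 1.29 (1.13 to 1.47) in connecting tubule and principal cells, and all of these were under the size limit. Without the 3 richest cells of each library they were 1.14 (1.02 to 1.26), 1.31 (1.15 to 1.48) and 1.26 (1.05 to 1.499). In intercalated cells the Hspa8 ratio was 1.07 (0.932 to 1.22), an interval that held 1.

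Over all proximal tubule cells, the Hspa1 pair was found together in single cells more often than the separate frequencies gave. The same held for the pair with Hsph1, Hsp90aa1 and Dnajb1, and not for the constitutive members. Each proximal tubule cell was thinned to 2000 UMIs, which left out none. Hspa1a and Hspa1b shared 15 CA3 cells and 39 vehicle cells, 5.69 times (3.19 to 9.35) and 5.40 times (3.85 to 7.34) the number expected from independent detection. Hspa1a or Hspa1b was found with Dnajb1 in 11 and 15 cells, 2.08 times (1.04 to 3.71) and 1.79 times (1.002 to 2.94). Hspa1b with Hsph1 gave 1.92 times (1.08 to 3.15) in CA3 and 2.72 times (1.96 to 3.68) in vehicle, and with Hsp90aa1 1.47 times (1.07 to 1.97) and 1.40 times (1.12 to 1.72). Bag3 met Hspa1a in 1 CA3 cell and 7 vehicle cells, too few to read. Hspd1 with Hspe1, the 2 parts of 1 machine, gave 1.04 times in each library, and Hspa8 with Hspa1a 1.03 times in CA3 and 1.04 times in vehicle, and each of these intervals held 1. Hspa8, Hspd1 and Hspe1 were detected in most cells, which leaves such a ratio little room above 1.

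Cluster kinds were also taken apart, where the frequency of detection caps the ratio at a lower value inside the Cyr61-led clusters than outside, so no order between them is read. Inside the Cyr61-led clusters, Hspa1a and Hspa1b were found together 1.67 times (0.882 to 2.82) as often as independence gives in CA3 and 1.56 times (1.09 to 2.14) in vehicle. Outside, the numbers were 4.83 times (0.996 to 14.1) from 3 CA3 cells and 5.83 times (2.52 to 11.5) from 8 vehicle cells. Hspa1b with Hsph1 gave 1.40 times (0.713 to 2.42) in CA3 and 1.33 times (0.890 to 1.89) in vehicle inside, and 1.26 times (0.344 to 3.22) and 2.97 times (1.67 to 4.88) outside, so of these only the vehicle interval outside left out 1. The pairs with Dnajb1 and Hsp90aa1 were not taken apart in this way. After thinning, Dnajb1 was found in 12.0% of CA3 and 9.24% of vehicle cells inside, against 4.73% and 4.48% outside. Hsp90aa1 was found in 89.6% and 92.4% inside, against 53.3% and 55.7% outside. The part of cluster kind in the ratios over all proximal tubule cells was not tested. Hspb1 was left out of co-detection comparisons in the proximal tubule since its pairs held at most 9 cells.

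**Figure D5:**
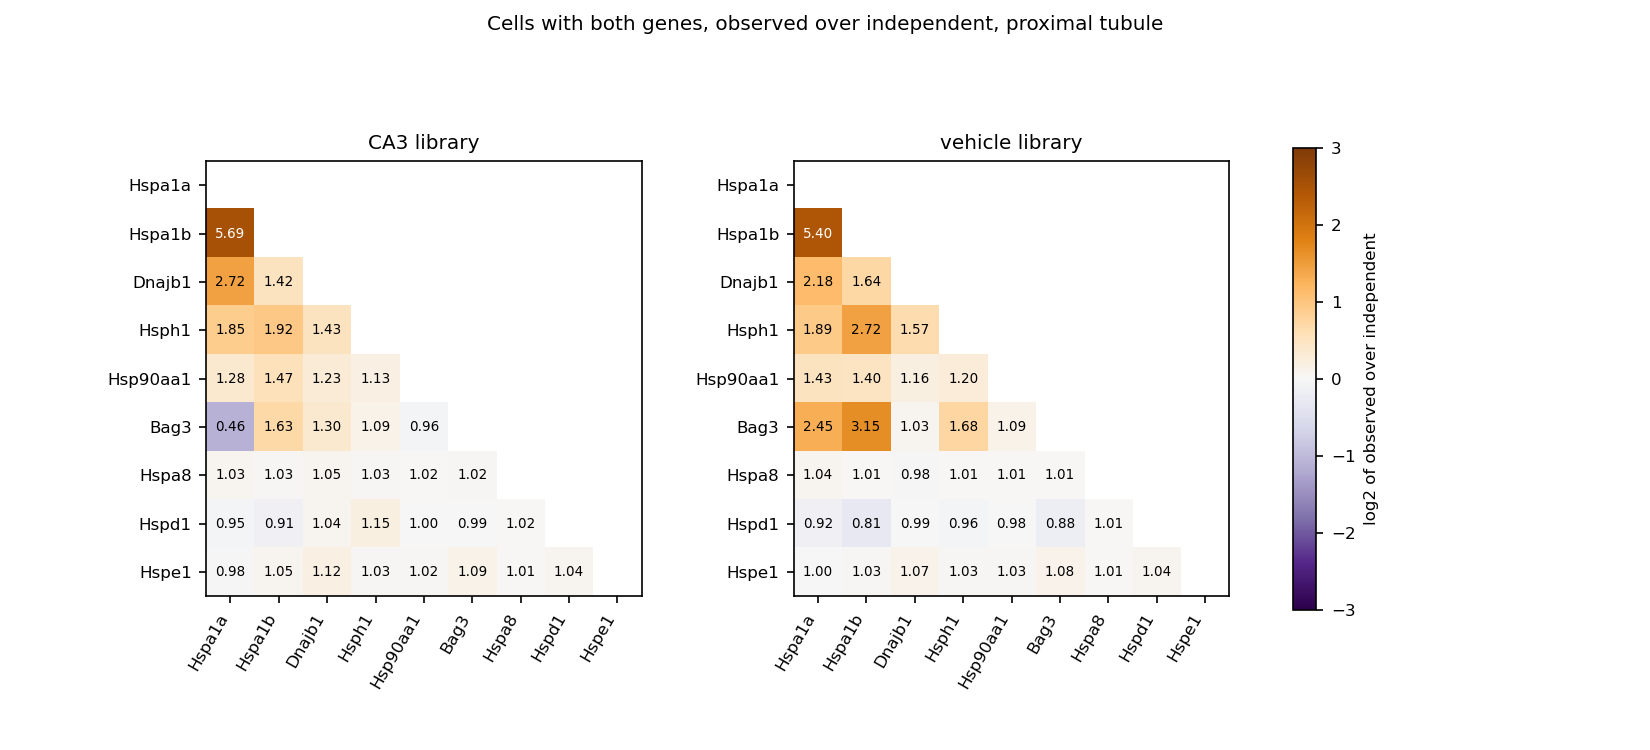
Number of proximal tubule cells with a UMI of both genes over the number expected from independent detection, after thinning each cell to 2000 UMIs, as printed in each square and coloured on a log2 scale; CA3 is the left panel and vehicle the right. The Hspa1a and Hspa1b square stands at 5.69 and 5.40, and squares among Hspa8, Hspd1 and Hspe1 stand between 1.01 and 1.04.

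After thinning to 2000 UMIs, cells with 3 or more of the 7 inducible members were a small share of the proximal tubule and over 50% of endothelium. Without thinning the proximal tubule share was 26.8% in CA3 and 26.5% in vehicle. With thinning, such cells made up 5.25% (4.04 to 6.70%) of CA3 and 6.62% (5.39 to 8.03%) of vehicle proximal tubule cells, and 25.6% (18.2 to 34.2%) and 33.7% (26.9 to 41.0%) within the Cyr61-led clusters. In endothelium the share was 57.9% (40.8 to 73.7%) in CA3 and 72.5% (56.1 to 85.4%) in vehicle. Phagocytes had 16.3% (6.81 to 30.7%) and 28.9% (15.4 to 45.9%), the thick ascending limb 10.4% (3.47 to 22.7%) and 18.9% (11.4 to 28.5%), the distal convoluted tubule 11.3% and 10.7%, and T or NK cells 12.5% and 9.80%. CA3 and vehicle intervals overlapped in each of these classes. Proximal tubule cells with a UMI of Hspa1a or Hspa1b differed in other measures too: their median depth was 12508.5 UMIs in CA3 and 10882 in vehicle, against 7448 and 6927 in cells without, and their median mitochondrial share was 11.2% and 12.6%, against 20.5% and 18.9%.

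The genes whose level followed the Hspa1 pair most closely from cell to cell were led by immediate early genes. Across 1161 CA3 and 1435 vehicle proximal tubule cells, the highest Pearson correlations of log-scaled counts among 6785 genes detected in at least 10% of cells were with Fosb, at 0.53 in CA3 and 0.62 in vehicle, Jun, at 0.49 and 0.59, and Dusp1, at 0.49 and 0.54. Fos, Jund, Klf6, Rhob, Cyr61, Pdk4 and Neat1 completed the 10 closest, each with at least 0.41 in both libraries. The members themselves were less close, led by Hsp90aa1 at 0.40 in CA3 and 0.44 in vehicle, Hsph1 at 0.23 and 0.29, and Dnajb1 at 0.18 and 0.19. Hspd1 stood at -0.04 and -0.08. Cells of 1 library share their preparation and differ in depth, so these values describe the 2 libraries only.

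The rest of the chaperone network showed no difference of size in the proximal tubule. None of the 59 measured genes in 9 chaperone lists passed the size limit in either direction, where 5.83% of all genes did. Cryab, a small heat shock protein, was nearest to it, at 19.8 CPM in CA3 and 28.0 CPM in vehicle and a ratio of 0.710 (0.587 to 0.856); the thin limb markers, a list that includes Cryab, stood at 222 and 265 CPM in the same cells, and their part in the ratio was not tested. Hsp90ab1, the constitutive partner of Hsp90aa1, had 1154 CPM in CA3 and 1349 CPM in vehicle, a ratio of 0.856 (0.834 to 0.877), and St13, an HSP70 cochaperone, had 438 and 514 CPM, a ratio of 0.852 (0.818 to 0.887). Ahsa1, which stimulates HSP90, had 60.7 CPM in CA3 and 50.5 CPM in vehicle, a ratio of 1.20 (1.07 to 1.36). The heat shock factor gene Hsf1 had 18.2 CPM in CA3 and 16.6 CPM in vehicle, and Hsf2 had 21.9 and 18.6 CPM; the intervals of both ratios held 1, as did that of their binding protein gene Hsbp1.

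Among J-domain genes Dnajb4 had a ratio of 1.16 (1.07 to 1.26), Dnajb6 of 0.907 (0.837 to 0.983) and Dnajb2 of 1.09 (0.944 to 1.26). Of the ER chaperones, which serve the secretory pathway, Pdia6 had a ratio of 0.841 (0.781 to 0.905), Pdia4 of 0.870 (0.779 to 0.971) and Sdf2l1 of 0.845 (0.703 to 1.01). The mitochondrial partners of Hspd1 stood close to 1, with Hspa9 at 0.962 (0.924 to 1.002), Grpel1 at 0.915 (0.861 to 0.971) and Lonp1 at 1.05 (0.945 to 1.17). The cytosolic chaperonin genes Cct2, Cct5 and Cct4 lay between 0.942 and 1.05, and the HSP70 cochaperones Bag5, Hspbp1 and Bag2 between 0.915 and 1.08. The HSP70 relatives Hspa2, Hspa14 and Hspa4l and the small heat shock genes Hspb6 and Hspb11 had intervals that held 1. Of the 14 measured immediate early genes none passed the size limit; their median log2 ratio was 0.02, and those furthest from 1 were Ier2 at 0.852 (0.758 to 0.957), Ier3 at 1.16 (0.908 to 1.48) and Klf6 at 0.877 (0.838 to 0.919). Summed, the immediate early genes had a ratio of 1.08 (1.06 to 1.10) inside the Cyr61-led clusters and 1.14 (1.11 to 1.16) outside. The Cyr61-led clusters held 10.8% of CA3 and 12.8% of vehicle proximal tubule cells. Neither ratio is therefore that of the whole class, whose sum was not computed. A whole-class ratio can lie below both, as that of the Hspa1 pair did at 0.646. Of the immediate early genes with most UMIs, over the whole class Jun had a ratio of 0.973 (0.953 to 0.994) and Fosb of 0.883 (0.851 to 0.915). Fos had 1.06 (1.02 to 1.10) and Jund 1.05 (1.02 to 1.09).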

How the data were processed

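The deposited tables hold whole-number UMI counts per gene and cell barcode, made by the authors with Cell Ranger 3.0.1 on mm10, per the submitters' processing notes. Barcodes under 500 genes or over 50% mitochondrial UMIs were dropped, and the rest were clustered with scanpy 1.11.5 (counts scaled to 10000 and log-transformed, 2000 variable genes, 30 components, 15 neighbours, Leiden resolution 1), leaving out 89 chaperone and immediate early genes, and clusters were named from marker lists. No doublet caller was run. Counts were summed per library and class; ratios have exact conditional binomial intervals, shares exact Clopper-Pearson and levels exact Poisson intervals (scipy 1.17.1), all at 95%. Cells are not replicates, so no test was made. Co-detection intervals hold the expected number fixed. Classes under 50 cells are given side by side. The members, markers and lists were chosen with earlier results of these data known. Beyond the members, the 3 genes of each list with the largest change from at least 30 UMIs, and the 10 most correlated with the Hspa1 pair, are named, and others where a count called for it. The calculations were tested on simulated data, with class sums drawn as Poisson counts. Such sums hold no unevenness between cells, so they cannot show how the intervals behave for unevenly spread genes.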

Additional observations from a re-analysis of the deposited data

Results flagged for a closer look

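Bag3 drew attention because its ratio of CA3 over vehicle lay on opposite sides of 1 in the 2 kinds of proximal tubule cluster. In the clusters not led by Cyr61 it was 1.58 (1.22 to 2.06), from 19.1 CPM in CA3 and 12.0 CPM in vehicle. In the Cyr61-led clusters it was 0.659 (0.440 to 0.971), from 24.8 CPM in CA3 and 37.7 CPM in vehicle. The difference between them was not tested, since each group is 1 library.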

How the results depend on the processing

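No paired analysis was possible because each group is 1 library. Of 62 recomputations of the main values, 49 kept their reading and 13 moved. With cells thinned to 2000 UMIs, the median log2 ratio was 0.00488 over inducible and -0.11 over constitutive members, and the Hspa1 sum had a ratio of 0.557. The sum was 0.593 without the 3 richest cells of each library. Settings chosen after seeing the data gave 0.755 for the sum in the Cyr61-led clusters alone. Without cells holding 3 or more UMIs of other classes' markers they gave 0.328, an inducible median of -0.49 and an Hspb1 ratio of 0.248; the cause was not tested. The share of proximal tubule cells with 3 or more inducible members was 26.8% in CA3 and 26.5% in vehicle without thinning, and 8.70% and 10.2% at 3500 UMIs; with at least 2 members it was 18.6% and 21.3%. Of the proximal tubule ratios of single members, 96 kept their reading, 23 moved and 1 turned. Member ratios in other classes kept their reading in 165 cases and moved in 44. Member levels by class kept it in 284 cases and moved in 133. The proximal tubule ratio of the Hspa1 sum was below 1 in every alternative run. Bag3, Hspb1 and the small classes rest on few UMIs, and the intervals leave out differences between animals and preparations. The intervals of levels and ratios also leave out the spread between cells.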
